A study of Homo sapiens with 6 samples.

Results

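Mucin genes encode the glycoproteins of mucus and of the epithelial cell surface, and 10 of them were examined in maps of acetylated NEIL1 (AcNEIL1) in HCT116 cells, a human colorectal cancer line. NEIL1 is a DNA glycosylase, an enzyme that removes oxidised bases and so starts base excision repair. The members were chosen by gene name from the 19821 protein-coding genes of the RefSeq annotation, with the peak counts and pileups that these same maps gave already known: MUC1, MUC2, MUC4, MUC5AC, MUC5B, MUC6, MUC12, MUC13, MUC16 and MUC17. Each gene body was extended by 10 kb on either side, and all peaks touching such a window were counted. For that reason the counts and levels are given as a description and without a test.

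The gel-forming mucins MUC2, MUC5AC, MUC5B and MUC6 are secreted and lie next to each other on chromosome 11, whereas MUC1, MUC4, MUC12, MUC13, MUC16 and MUC17 carry a membrane anchor and shield the cell surface. The protein chain of a mucin has a central part of tandem repeats rich in serine and threonine, to which O-linked sugars are attached, so the genes hold repeat-rich sequence within their bodies. MUC2 is the main gel-forming mucin of the colon, and goblet cells are its main source.

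The study held 3 AcNEIL1 ChIP libraries and 3 input libraries of DNA taken before immunoprecipitation, all from exponentially growing, formaldehyde-crosslinked HCT116 cells with no other treatment. The ChIP used a rabbit antibody made for the study, and each ChIP library was paired with its like-numbered input when peaks were called. Nothing in the labels ties the replicates to separate cultures, and their spread may be technical in part. Peak lists hold no expression values, so neither the identity of the line nor the activity of the mucin genes was checked.

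The ChIP libraries held 31921768, 28814429 and 35222701 tags and the inputs 32877739, 37772127 and 33606858 tags in replicates 1, 2 and 3 after the caller's duplicate filter. The lists held 39789, 60075 and 49609 peaks on chromosomes 1 to 22 and X. Replicate 2 thus gave the longest list from the ChIP library with the fewest tags, and its peaks were also the widest, the median width being 478 bp there and 401 and 384 bp in replicates 1 and 3. The mucin windows, 729.6 kb in total, held 134, 120 and 148 of these peaks. MUC12 and MUC17 are neighbours whose windows overlap, and 4, 6 and 5 peaks were counted for both.

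Sequence before the annotated start of some members lay inside peaks, and the 250 bases ahead of the start are shown for these starts, of which MUC1 was touched only at its edge, and for MUC13 as a gene with no peak. All are from RefSeq, build GRCh38.p14, written in the direction of transcription, with each CG dinucleotide in capitals because human promoters differ widely in CpG content.
MUC2, chr11:1074624-1074873, plus strand: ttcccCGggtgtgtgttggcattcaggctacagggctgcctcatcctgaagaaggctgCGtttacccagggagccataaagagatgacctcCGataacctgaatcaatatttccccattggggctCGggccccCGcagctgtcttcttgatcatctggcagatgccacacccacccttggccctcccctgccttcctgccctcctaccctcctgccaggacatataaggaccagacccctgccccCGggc
MUC12, chr7:100969315-100969564, plus strand: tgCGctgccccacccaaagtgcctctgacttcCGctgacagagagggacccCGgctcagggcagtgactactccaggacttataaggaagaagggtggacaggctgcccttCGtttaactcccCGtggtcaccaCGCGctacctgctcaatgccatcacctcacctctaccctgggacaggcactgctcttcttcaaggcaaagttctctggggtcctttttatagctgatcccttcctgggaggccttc
MUC17, chr7:101019831-101020080, plus strand: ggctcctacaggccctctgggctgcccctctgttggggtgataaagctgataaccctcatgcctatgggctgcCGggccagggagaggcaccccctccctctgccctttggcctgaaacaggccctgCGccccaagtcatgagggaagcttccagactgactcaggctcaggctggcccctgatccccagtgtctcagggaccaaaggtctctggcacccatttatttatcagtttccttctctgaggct
MUC16 internal start, chr19:9010410-9010659, minus strand: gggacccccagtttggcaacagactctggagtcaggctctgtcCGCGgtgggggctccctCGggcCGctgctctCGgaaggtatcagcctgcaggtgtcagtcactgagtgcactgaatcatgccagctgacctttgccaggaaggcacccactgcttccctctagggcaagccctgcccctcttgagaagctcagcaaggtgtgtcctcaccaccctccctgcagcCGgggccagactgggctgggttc
MUC4, chr3:195811930-195812179, minus strand: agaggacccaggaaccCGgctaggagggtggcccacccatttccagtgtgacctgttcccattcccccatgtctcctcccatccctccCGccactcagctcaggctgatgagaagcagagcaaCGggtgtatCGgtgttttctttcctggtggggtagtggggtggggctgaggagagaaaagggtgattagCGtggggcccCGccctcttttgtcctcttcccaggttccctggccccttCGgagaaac
MUC1, chr1:155192916-155193165, minus strand: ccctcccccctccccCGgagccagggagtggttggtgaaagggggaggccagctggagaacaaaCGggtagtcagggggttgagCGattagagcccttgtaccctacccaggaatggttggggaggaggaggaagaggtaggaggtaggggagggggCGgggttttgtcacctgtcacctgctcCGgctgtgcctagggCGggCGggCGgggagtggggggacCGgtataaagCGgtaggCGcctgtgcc
MUC13, chr3:124934752-124935001, minus strand: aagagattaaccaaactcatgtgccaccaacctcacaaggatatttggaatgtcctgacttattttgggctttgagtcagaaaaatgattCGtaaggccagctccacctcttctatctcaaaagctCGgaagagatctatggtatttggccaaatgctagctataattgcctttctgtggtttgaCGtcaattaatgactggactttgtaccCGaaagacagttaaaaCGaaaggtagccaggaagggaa
RefSeq promoter sequence was held for 7 of the 10 members. Peaks in all 3 replicates touched the 250 bases before the outer start of MUC2, MUC12 and MUC17, which is 3 of those 7 members, and 1.54% of the 15812 promoters matched to protein-coding genes were touched in this way. At MUC2 all 250 bases were covered in each replicate, and the peaks had a fold enrichment over local background of 4.33, 5.71 and 2.71 in replicates 1, 2 and 3. At MUC12 the covered part was 46, 250 and 250 bases, with a fold of 3.37, 5.03 and 4.78. At MUC17 it was 50, 250 and 246 bases, with a fold of 2.90, 2.77 and 3.28. Replicate 1 thus reached only the edge of the MUC12 and MUC17 promoters, while it spanned that of MUC2.

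MUC4 had its 250 bases touched in replicates 2 and 3 only, over 250 and 218 bases. At MUC1 the overlap was 12 bases in replicate 1 and 0 in replicates 2 and 3. With these, 5 of the 7 outer promoters were touched in at least 1 replicate, against 7.61% of all promoters. The outer start of MUC16 had none, but an internal RefSeq start of that gene, shown above, was covered over all 250 bases in each replicate. Among all 22132 RefSeq starts tested, 1.56% were touched in all 3 replicates. The promoters of MUC2, MUC12, MUC17 and the internal MUC16 start held 6, 7, 2 and 6 CpG. Promoters touched in all 3 replicates had a median of 9 CpG and a GC content of 64.4%, beside 17 CpG and 62.4% over all promoters. MUC13, with 5 CpG, had a GC content of 41.6%. The letters TATAA, searched on both strands, occurred in the outer promoters of MUC1, MUC2, MUC12 and MUC13, which is 4 of 7, and in 15.9% of all promoters. In MUC2 they begin 28 bases before the start and in MUC1 24 bases before it, while in MUC12 and MUC13 the forward match lies 170 and 89 bases before it. This match was present at genes with and without peaks.

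Peaks lay in the windows of 9 of the 10 mucin genes in all 3 replicates, and among all protein-coding genes this held for 34%. These 9 had peaks in each replicate, against 42, 48.7 and 44.4% of all genes in replicates 1, 2 and 3 and 44.5% in at least 2 of them. Among genes whose body is 20 kb or longer, as it is for 9 of the 10 mucins, it held for 31.4%. The same 9 had a peak in the gene body itself in every replicate, against 20.7% of all genes. MUC13 had none in any replicate, and 56.7% of all genes had a peak in at least 1. The members were not close to each other in how much of their windows was covered, and 3 levels could be seen. MUC2, MUC5B, MUC5AC, MUC4 and MUC1 were covered most, MUC6 and MUC12 less, and MUC17, MUC16 and MUC13 little or not at all.

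**Figure D1:**
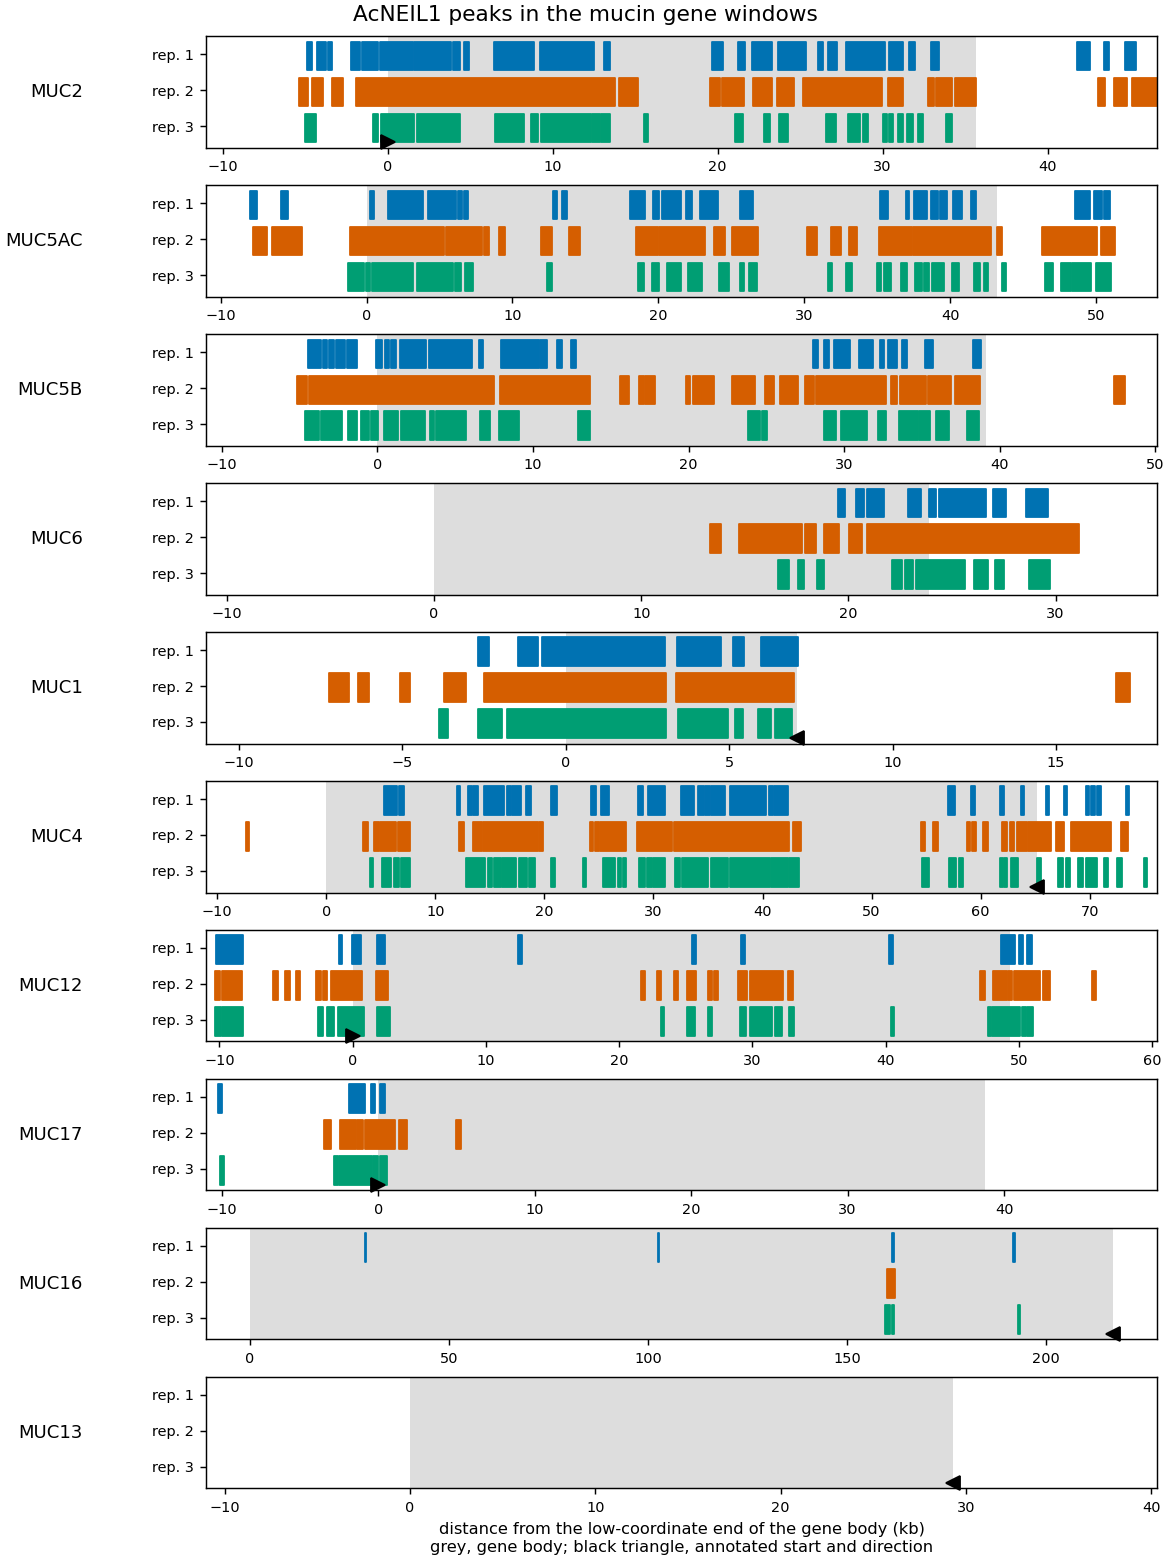
Each row shows 1 mucin gene window, with peaks of replicates 1, 2 and 3 as bars against the distance in kb from the low-coordinate end of the gene body (grey); triangles mark the annotated start and its direction where known. MUC2 and MUC5AC have peaks along most of the body, and MUC5B at both ends, with its middle filled mainly in replicate 2. MUC6 and MUC17 have peaks near one end, MUC16 mainly at a single place and MUC13 nowhere.

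MUC2 (chr11:1074874-1110508) was the most covered. Its peaks, 25, 17 and 22 in replicates 1, 2 and 3, took up 43.6, 59.4 and 30.2% of the window, a mean of 44.4% ± 14.6 (SD, n = 3). That mean stood at percentile 99.7 among all protein-coding genes. MUC5B followed with 28.2, 60.1 and 31.7% (40.0% ± 17.5, SD, n = 3) and MUC5AC with 28.1, 56.8 and 32.8% (39.2% ± 15.4, SD, n = 3). MUC4 had 26.0, 45.3 and 34.5% (35.3% ± 9.68, SD, n = 3), and MUC1 had 27.6, 42.0 and 31.5% (33.7% ± 7.42, SD, n = 3). Neighbours in this order differed by less than the spread between replicates, and in all 5 genes replicate 2 was the highest.

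MUC6, a mucin of gastric glands, had 14.9, 36.0 and 14.9% of its window covered (21.9% ± 12.2, SD, n = 3). MUC12, a membrane mucin of the colon, had 8.91, 24.3 and 18.7% (17.3% ± 7.78, SD, n = 3). MUC17, a membrane mucin of the intestinal brush border, had 2.88, 7.83 and 5.37% (5.36% ± 2.48, SD, n = 3), and the very long MUC16, the source of the CA125 antigen, 0.737, 0.880 and 0.881% (0.833% ± 0.0826, SD, n = 3). In 7 of the 10 members the mean share lay at or above the 90th percentile of all genes, which was 11.3%, and in 4 at or above the 99th, which was 34.7%. MUC17 was at percentile 81.2 and MUC16 at 61.4. The median over the 10 members was 20.5, 39.0 and 24.5% in replicates 1, 2 and 3, and the median over all protein-coding genes was 0% in each.

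**Figure D2:**
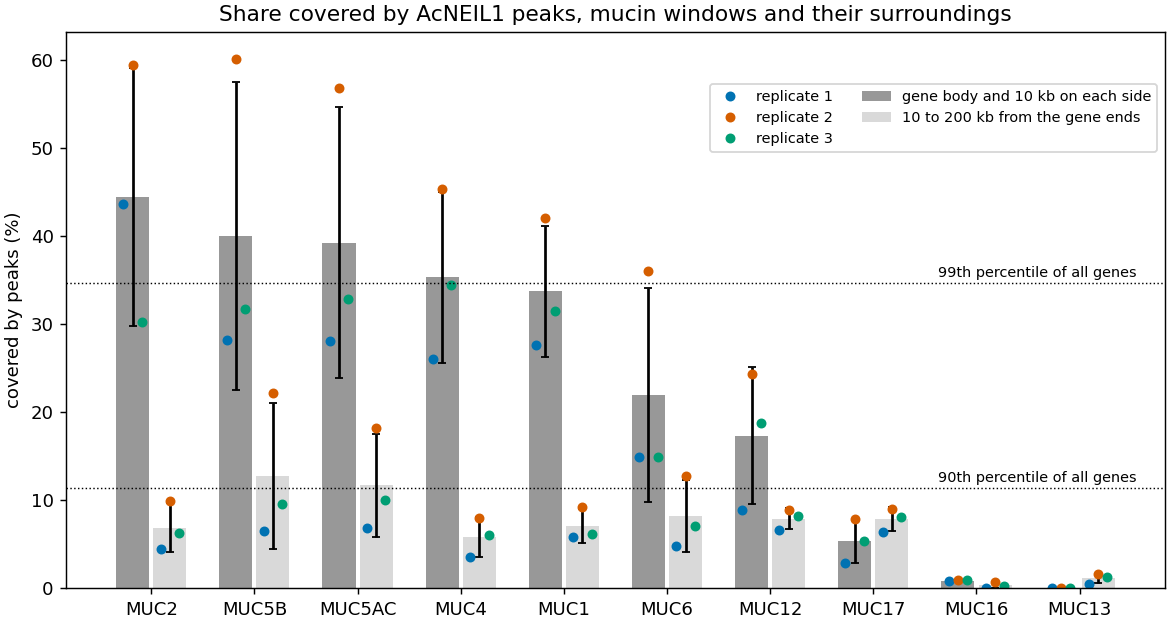
Bars give the mean share of sequence covered by peaks (in %, with SD over 3 replicates, points for each replicate) in the gene window (dark, left) and from 10 to 200 kb away from the gene ends (light, right); dotted lines are percentiles of the share over all protein-coding gene windows. The window of MUC2 averaged 44.4% and its surroundings 6.84%, whereas MUC17 averaged 5.36% in the window and 7.79% around it.

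The covered share was set beside that of the surroundings, taken from 10 to 200 kb from either gene end and without the windows of other members. MUC2 and MUC4 stood out most from theirs. MUC2 had 44.4% in the window and 6.84% ± 2.78 (SD, n = 3) around it, a ratio of 6.49, and MUC4 had 35.3% and 5.81% ± 2.26, a ratio of 6.07. For MUC1 the ratio was 4.79. Around MUC5AC and MUC5B the surroundings were themselves more covered, at 11.7% ± 5.87 and 12.7% ± 8.29, and the ratios were 3.36 and 3.15. Replicate 2 was the highest in both surroundings, at 18.2 and 22.1%. Around MUC6, on the same chromosome as MUC2, MUC5AC and MUC5B, the share was 8.13%. MUC6 had a ratio of 2.70 and MUC12 of 2.19. MUC17 was the one member with peaks whose window was less covered than its surroundings, with a ratio of 0.687. MUC16 and MUC13 lay in stretches with few peaks, 0.311% and 1.08% covered around the genes.

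Replicate 2 had fewer but wider mucin peaks. It had the fewest peaks of the 3 replicates in 6 of the 9 members with peaks, yet the most covered sequence in 8 and the widest single peak in 8. In MUC2 the widest peak measured 3265, 15686 and 2987 bp in replicates 1, 2 and 3, and in MUC5B 2773, 11840 and 1938 bp. The wide peak of replicate 2 in MUC2 lay where replicates 1 and 3 had several shorter peaks close together. The number of peaks therefore did not follow the covered length between replicates, and both are given.

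By the median, peaks in the mucin windows were wider and taller than those of whole lists, but of higher fold in replicate 2 alone. The median width was 498, 705 and 517 bp in mucin windows, against 401, 478 and 384 bp over whole lists in replicates 1, 2 and 3. The median pileup, the height of extended tags at the summit, was 26, 31 and 24.8 tags in mucin windows and 20, 21 and 19.1 tags in whole lists. The median fold was 3.27, 3.48 and 3.35 in mucin windows and 3.42, 3.40 and 3.61 in whole lists. The median local background, which the caller took from the matched input and which was recovered here from pileup and fold, was 7.06, 8.07 and 6.47 tags in mucin windows and 4.94, 5.34 and 4.48 in whole lists. Median width, pileup and background were thus higher in the mucin windows in every replicate, and median fold was higher in replicate 2 alone. A fold of 5 or more was seen in 2.24, 12.5 and 8.11% of mucin peaks, against 3.39, 5.13 and 5.13% in whole lists. That share was thus higher in replicates 2 and 3 and lower in replicate 1. The part of the local background in the pileup was not tested. In replicate 3 the ChIP library was larger than its input and its pileup is scaled by 0.954, whereas in replicates 1 and 2 pileup is in unscaled ChIP tags.

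The strongest mucin peak by pileup was in MUC1 (chr1:155185824-155192915), a short gene for a membrane mucin of most glandular epithelia. Its summit reached 82, 122 and 65.8 tags in replicates 1, 2 and 3, and these 3 summits lay within 40 bp of each other, 3.71, 3.69 and 3.67 kb from the low-coordinate end, in the middle of the 7.09 kb body. The fold there was 3.42, 6.37 and 4.77 over a local background of 23.3, 18.3 and 13.0 tags. Replicate 2 was the highest in both. The highest fold in the window was elsewhere in each replicate, at 4.79, 10.8 and 4.90, on summits 6.17, 2.74 and 6.13 kb from the low end. The fold of 10.8 was the 4th highest of all peaks in the list of replicate 2, while those of replicates 1 and 3 ranked 1995th and 3240th. Bases covered in all 3 replicates made up 76.4% of the body, in the merged regions chr1:155183137-155188879 and chr1:155189197-155192927. This share was far lower in the other members: 35.4% in MUC2, 22.5% in MUC4, 21.8% in MUC5B, 21.4% in MUC5AC and at most 4.93%, in MUC12, among the rest. The MUC1 window also reaches into TRIM46, which ends at -0.853 kb and was touched by 2, 6 and 3 peaks. MUC1 is transcribed from its high-coordinate end, and no peak of replicates 1 or 3 lay beyond that end except for the last 12 bp of 1 peak.

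At its body MUC2 had 2 groups of peaks. They were separated by 3.76 kb without a peak in any replicate, from 15.8 to 19.6 kb past the start. Further peaks lay beyond the body, from 41.8 to 47.4 kb past the start, 3 each in replicates 1 and 2 and 0 in replicate 3. In the group from 6 kb before the start to 16 kb after it, peaks covered 62.0, 85.2 and 54.4% of the sequence in replicates 1, 2 and 3. The highest fold of the window lay here in each replicate, at 5.55, 5.71 and 8.20, on summits 2.83, 3.77 and 2.95 kb past the start. In the group from 19 to 36 kb, 51.8, 74.0 and 28.5% was covered. The highest pileup of the window lay here, at 65, 86 and 58.2 tags, on summits 22.98, 23.02 and 23.05 kb past the start, within 67 bp of each other. Its fold was lower, 3.77, 3.23 and 2.82, over a local background of 16.5, 25.9 and 20.0 tags. The tallest and the most enriched peaks of MUC2 were thus different peaks in all 3 replicates.

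MUC4 (chr3:195746771-195811929), a large membrane mucin that binds the receptor ERBB2, had 31, 27 and 38 peaks. Peaks covered 65.5, 89.8 and 79.5% of the stretch from 28 to 44 kb past its low-coordinate end, and the strongest pileups, 57, 71 and 56.3 tags, lay there. In replicates 1 and 3 these were at 30.0 and 30.2 kb, with a fold of 3.10 and 4.79 over a background of 17.7 and 10.96 tags. In replicate 2 it was at 39.3 kb with a fold of 10.4 over 5.94 tags. The highest fold in replicates 1 and 3 was near that place, 6.44 at 39.9 kb and 6.90 at 37.2 kb, so all 3 replicates had their highest fold within 2.69 kb of each other. These folds ranked 130th, 7th and 96th in the lists of replicates 1, 2 and 3. Next to it lay 10.98 kb with no peak in any replicate, from 43.5 to 54.5 kb. Peaks began again toward the annotated start at the high end, where 16.7, 50.6 and 29.9% of the stretch from 54 to 76 kb was covered. Their median pileup was 19.5, 19 and 18.1 tags, against 39, 62 and 36.3 tags from 28 to 44 kb.

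**Figure D3:**
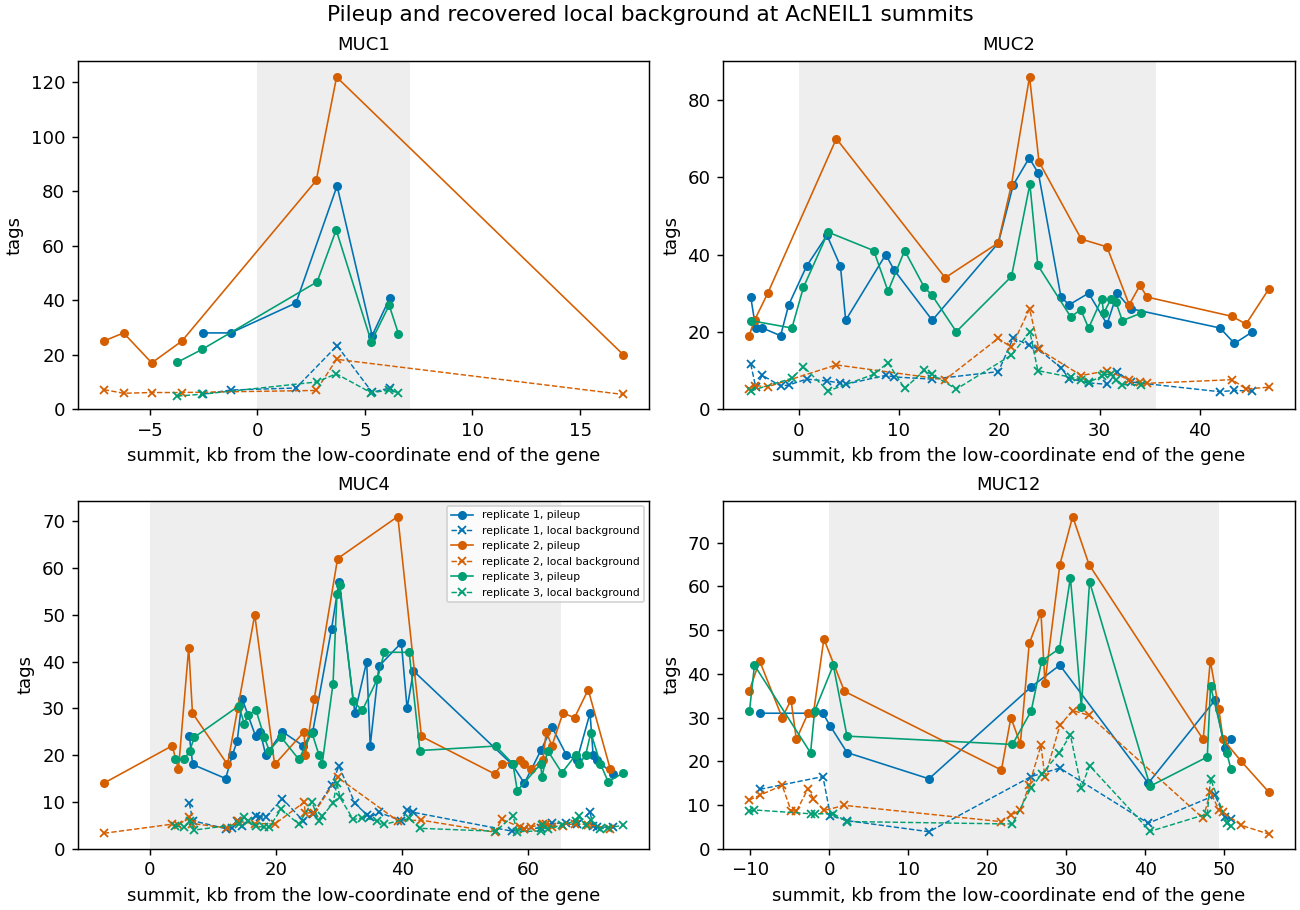
Summits of MUC1, MUC2, MUC4 and MUC12 (each panel) are plotted by distance in kb from the low-coordinate end of the gene (grey, gene body), with pileup as circles and solid lines and local background as crosses and dashed lines, both in tags, for each replicate; lines only join summits. In MUC12 the tallest summits, 42 to 76 tags near 30 kb, stand where the background also reaches 18.4 to 31.6 tags, whereas in MUC4 near 39 kb the background stays low.

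MUC12 (chr7:100969565-101018936) had 11, 24 and 18 peaks in its window, the low side of which overlaps MUC3A. Its tallest summits, 42, 76 and 62.0 tags in replicates 1, 2 and 3, lay 29.2, 30.8 and 30.5 kb past the start within a stretch where the local background was 18.4, 31.6 and 26.0 tags. The fold there was 2.21, 2.36 and 2.33. The highest fold of the window was 5.03 and 4.78 in replicates 2 and 3, both near the start, at -0.668 and 0.527 kb from it, and 3.48 in replicate 1, at 12.6 kb. From 25 to 34 kb peaks covered 7.12, 54.3 and 43.4% of the sequence, so this stretch was called far less in replicate 1. From 3 kb before to 3 kb after the start the share was 26.3, 65.4 and 64.3%. The body from 2.81 to 12.4 kb had no peak in any replicate. A further region shared by all 3, chr7:101017585-101021126, runs from the end of MUC12 over the start of MUC17.

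MUC17 (chr7:101020081-101058859) had 4, 6 and 5 peaks, nearly all of them at that start. From 4 kb before to 2 kb after the start 27.6, 70.6 and 50.4% was covered. The strongest pileup, 34, 43 and 37.2 tags, was 1.67, 2.27 and 2.24 kb before the start. MUC12 ends at -1.15 kb from that start, so these 3 summits lie inside the body of MUC12. The highest fold was 3.33, 3.31 and 3.28, the lowest of the 9 members with peaks and with the smallest spread (3.31 ± 0.0286, SD, n = 3). No peak lay in the last 33.5 kb of the body, which is 86.3% of it. With peaks restricted to the body itself, the strongest pileup averaged 22.7 tags instead of 38.1.

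MUC5AC (chr11:1157953-1201138), the main gel-forming mucin of the gastric and airway surface, had 25, 20 and 30 peaks in its window. Of these, 20, 15 and 24 lay in the body and were spread along most of it. The longest stretch of the body without a peak in any replicate was 3.47 kb. The strongest pileup, 34, 51 and 41.0 tags, was at 1.69, 1.54 and 1.77 kb from the low-coordinate end in replicates 1, 2 and 3. The highest fold was 4.40, 5.54 and 7.81, at 4.93, 5.69 and 1.77 kb. From 2 kb before that end to 8 kb inside it, 52.5, 89.0 and 75.8% was covered. From 18 to 27 kb it was 58.3, 79.1 and 48.3%, and from 30 to 43 kb it was 28.2, 73.5 and 35.4%. Median pileup in these 3 stretches was similar in replicates 1 and 3, between 22.9 and 27 tags, and higher in replicate 2, between 33.0 and 49.5 tags.

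MUC5B (chr11:1223066-1262172), a gel-forming mucin of airways and salivary glands, had 24, 18 and 21 peaks. Both ends of the body were covered in every replicate: 59.9, 91.0 and 56.0% from 6 kb before the low-coordinate end to 14 kb inside it, and 42.6, 88.7 and 59.0% from 28 to 39 kb. The middle, from 16 to 28 kb, had 0, 54.2 and 8.86% covered, and 0, 8 and 3 summits lay in the middle of 3 equal parts of the body. The middle of MUC5B was therefore filled in replicate 2 and empty in replicate 1. The strongest pileup was 36, 55 and 38.2 tags with a fold of 4.42, 6.49 and 4.37, at 3.91, -2.81 and 8.97 kb from the low end. An antisense transcript, MUC5B-AS1, is annotated within that middle, and 0, 5 and 2 peaks touched it.

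MUC6 (chr11:1012823-1036718) had 8, 6 and 9 peaks, all toward its high-coordinate end. The first 13.3 kb of the body, 55.7% of it, held no peak in any replicate. The strongest pileup, 36, 59 and 37.2 tags, lay at 25.0, 24.3 and 24.3 kb, just past the end of the 23.9 kb body, with a fold of 2.92, 5.50 and 5.40. These summits are within a region of 10.2 kb, chr11:1033698-1043941, that was a single peak in replicate 2.

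MUC16 (chr19:8848844-9065751), with a body of 216.9 kb the longest member, had 4, 1 and 3 peaks. A single region, chr19:9008414-9011001, had peaks in all 3 replicates, with a strongest pileup of 23, 24 and 24.8 tags and a fold at that summit of 3.52, 4.90 and 5.39. The internal start whose sequence is given above lies within this region, and the peak over it had a fold of 3.52, 4.90 and 2.60 and a pileup of 23, 24 and 17.2 tags. In replicate 3 that was a second, lower peak of the region. The other regions with a peak were each seen in 1 replicate. MUC13 (chr3:124905442-124934751), a membrane mucin of the intestinal surface, had no peak past the caller's cutoff at this depth, and the nearest peak was 25.6, 46.7 and 93.6 kb from the gene in replicates 1, 2 and 3.

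**Figure D4:**
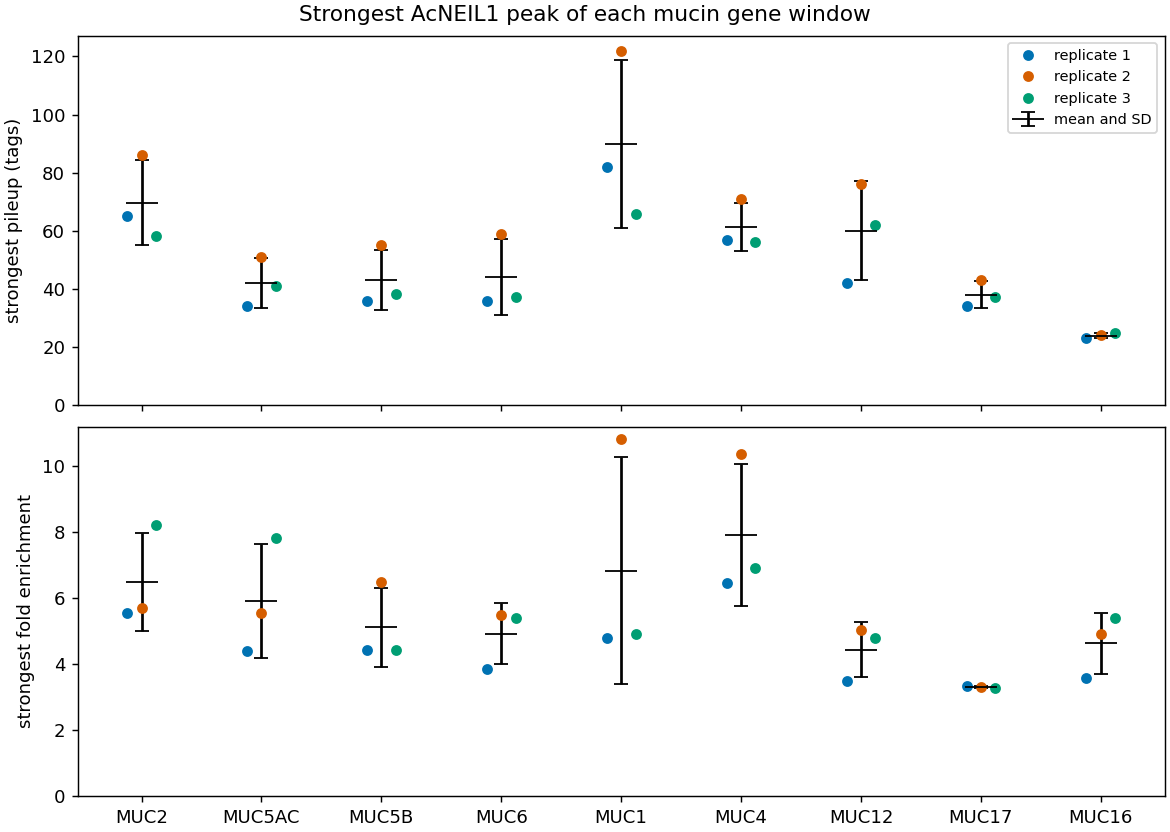
Points show the pileup in tags (upper panel) and the fold enrichment (lower panel) of the strongest peak in each mucin window by each measure, for replicates 1, 2 and 3, with the mean and SD as black bars. MUC1 averaged the highest pileup, 89.9 tags, and MUC4 the highest fold, 7.90, while MUC17 had the lowest fold, 3.31.

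By the strongest pileup the order was MUC1 (89.9 ± 28.9 tags), MUC2 (69.7 ± 14.5), MUC4 (61.4 ± 8.30) and MUC12 (60.0 ± 17.1, SD, n = 3 each). MUC6, MUC5B and MUC5AC followed at 44.1 ± 12.9, 43.1 ± 10.4 and 42.0 ± 8.54 tags, MUC17 at 38.1 ± 4.56 and MUC16 at 23.9 ± 0.907 tags (SD, n = 3 each). Neighbours among MUC1, MUC2, MUC4 and MUC12 differed by less than the larger of their SDs, and so did MUC6, MUC5B and MUC5AC. All genes share the same 3 libraries, so these SDs also hold differences between libraries. Within every replicate MUC1 stood above MUC2 and MUC2 above MUC4. The order of MUC4 and MUC12, and that of MUC6, MUC5B and MUC5AC, changed between replicates. No replicate of MUC16 reached any replicate of MUC17 in these windows, but the MUC17 summits lie in the body of MUC12. With gene bodies alone the means were 22.7 tags in MUC17 and 23.9 tags in MUC16. MUC17 stayed higher in replicates 1 and 2, at 25 and 25 tags against 23 and 24. In replicate 3 it was lower, at 18.1 tags against 24.8. By the highest fold the order was another one: MUC4 (7.90 ± 2.15), MUC1 (6.83 ± 3.44), MUC2 (6.49 ± 1.49), MUC5AC (5.92 ± 1.73) and MUC5B (5.12 ± 1.19, SD, n = 3 each). MUC6 had 4.92 ± 0.924, MUC16 4.63 ± 0.933, MUC12 4.43 ± 0.830 and MUC17 3.31 ± 0.0286 (SD, n = 3 each). MUC12 thus stood 4th by pileup and 8th by fold.

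The central repeat-rich parts could be addressed only by position, since the gene table holds no exons or repeats, and the body was divided into 3 equal parts, of which the middle one was used in their place. Of the summits in mucin gene bodies, 25 of 101, 34 of 86 and 36 of 116 lay in that middle part in replicates 1, 2 and 3, or 24.8, 39.5 and 31.0%. Over all protein-coding genes the share was 30.2, 30.7 and 30.3%. The mucin mean of 31.8% ± 7.42 was close to the all-gene mean of 30.4% ± 0.292 (SD, n = 3 each), and the mucin replicates lay on both sides of it. Pooled over the members, summits were therefore not gathered in the middle of the body, but single genes differed. In MUC12, 2 of 7, 9 of 13 and 6 of 12 body summits lay there, and in MUC6 0 of 4, 1 of 5 and 0 of 5. A wide peak counts as 1 summit here, and the covered share of the middle part was not measured over the members.

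In some genes the middle part differed in height from the rest of the body. In the 18 pairs of gene and replicate that had summits both in the middle part and outside it, the median pileup was higher in the centre in 12, and the median local background was also higher in 12. The median fold was higher in the centre in 6. Pairs of the same gene are not independent, and the counts followed the gene. In MUC1, MUC2, MUC4 and MUC12 the central pileup was the higher in each of their pairs. In MUC5B, MUC6 and MUC16 it was the lower, and in MUC5AC the replicates were mixed. For MUC2 the central and outer local background was 13.1 and 7.77 tags in replicate 1, 17.2 and 8.70 in replicate 2, and 10.0 and 8.27 in replicate 3. For MUC12 it was 17.5 and 6.43, 16.4 and 9.44, and 15.5 and 7.98 tags, with a central fold of 2.19, 2.36 and 2.28 against 3.10, 3.29 and 3.09 outside. In MUC4 the background was 7.77 and 5.65, 7.66 and 5.26, and 6.47 and 4.76 tags, and the fold hardly differed, at 3.29 and 3.22, 3.66 and 3.63, and 4.02 and 3.94. Local background thus moved with pileup in the centre of MUC2 and MUC12, and its part in the pileup was not tested.

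**Figure D5:**
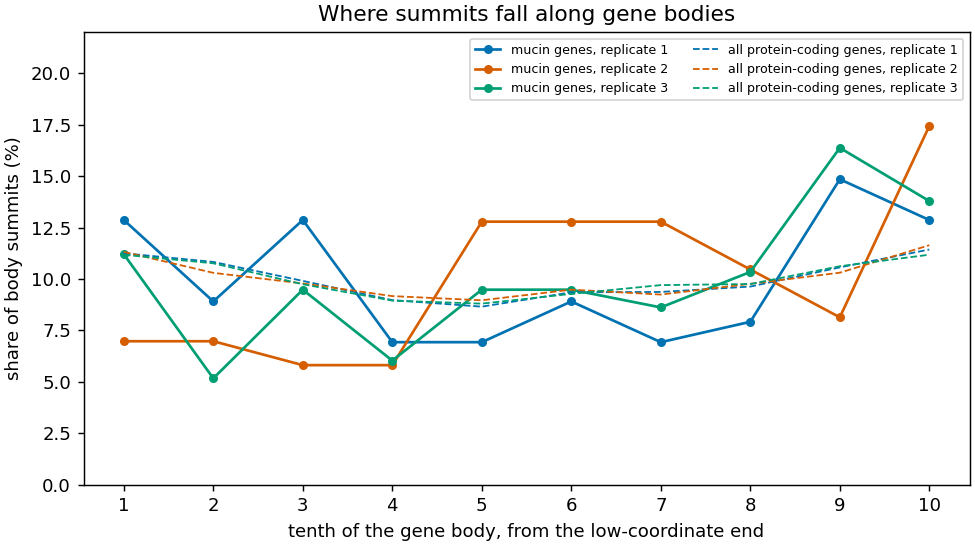
The share of gene-body summits (in %) falling in each of 10 equal parts of the body, counted from the low-coordinate end, is drawn as solid lines for the mucin genes and dashed lines for all protein-coding genes, 1 line a replicate. The all-gene lines stay between 8.66 and 11.6%, while the mucin lines, resting on 101, 86 and 116 summits, run from 5.17 to 17.4%.

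Sharing between replicates was described over merged regions. Peaks of the mucin windows merged into 120 regions, of which 40 held peaks of all 3 replicates, 28 of 2 and 52 of 1, so 33.3% were shared by all 3. Over whole lists 13.2% of 85534 regions were. The share of all-3 regions was 43.8% in MUC2, 37.9% in MUC4, 33.3% in MUC5B and in MUC6, 31.6% in MUC5AC, 28.6% in MUC1, 26.1% in MUC12, 20.0% in MUC16 and 16.7% in MUC17. Regions seen in replicate 2 alone numbered 36 of the 52 seen in a single replicate, or 69.2%, and 30180 of 58411, or 51.7%, over whole lists. After merging, the widest region with peaks of all 3 replicates was 15988 bp, at the start of MUC2 (chr11:1072642-1088629). Next came 12618 bp at the low end of MUC5B (chr11:1217926-1230543) and 10489 bp in MUC4 (chr3:195778700-195789188). These widths follow single peaks of replicate 2, of 15686, 11840 and 10489 bp, that join shorter peaks of replicates 1 and 3. Of all covered bases in the MUC2, MUC5B and MUC4 windows, 35.6, 29.3 and 34.5% were covered in all 3 replicates. The part of wide replicate 2 peaks in the share of shared regions was not tested.

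The 10 kb limit of the windows set some peaks in and others out. Just inside were a peak of MUC17 in replicate 1, 9.97 kb from the body with a fold of 2.34, and a peak of MUC12 in replicate 2, 9.94 kb away with a fold of 3.05. Just outside were a peak 10.2 kb from MUC6 in replicate 2, with a fold of 3.25, and a peak 10.4 kb from MUC4 in replicate 2, with a fold of 3.42. Also outside, 10.55, 10.57 and 10.51 kb from MUC12, lay very tall peaks of 166, 205 and 152 tags in replicates 1, 2 and 3, which fall in the neighbouring mucin gene MUC3A.

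Other mucin genes, goblet cell genes and the enzymes that add O-linked sugars were listed by name, again with earlier results known. Of 14 other mucin genes 6 had peaks in all 3 replicates and 7 had none in any, of 14 goblet cell genes 7 and 4, and of 29 O-glycosylation enzymes 11 and 11. Against 34% of all genes these are 42.9, 50.0 and 37.9%. The median covered share was 0.697, 1.87 and 0.224% in the 3 lists, beside 27.8% in the members and 0.226% over all genes. Coverage as high as in the most covered members was thus seen in few of the listed genes.

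MUC3A, a membrane mucin beside MUC12, had 20.8, 37.0 and 30.0% covered, and its tallest summits, 166, 205 and 152 tags at 8.72, 8.70 and 8.52 kb from its low end, exceeded any in the members. The fold there was 5.45, 6.15 and 5.66 over a background of 29.7, 32.5 and 26.0 tags. MUC20, beside MUC4, had 15.0, 27.5 and 25.2% covered. MUC22 had 7.09, 9.03 and 8.00% and MCAM, a cell adhesion molecule also listed as a mucin, 2.08, 16.4 and 4.48%. Among goblet cell genes SPDEF, a transcription factor of goblet cell maturation, stood first with 32.5, 65.4 and 35.9% (44.6% ± 18.1, SD, n = 3), level with MUC2. The trefoil peptides TFF1 and TFF2, which are secreted with mucins, averaged 21.3% ± 9.73 and 11.3% ± 6.31, and FCGBP, a protein of the mucus gel, 16.7% ± 7.12 (SD, n = 3 each). Among the enzymes GALNT9, which belongs to the family that starts O-linked chains, averaged 40.7% ± 13.5, ST6GALNAC1 and ST6GALNAC2, which add sialic acid, 13.5% ± 4.01 and 9.31% ± 6.94, and GALNT16, of the same family as GALNT9, 4.76% ± 2.25 (SD, n = 3 each).

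The genes most like MUC2 in covered share over the 3 replicates, by Euclidean distance in percentage points, were SPEM3 on chromosome 17 with 44.8, 60.9 and 36.7% (distance 6.76), LOC124900467 on chromosome 21 with 36.4, 59.5 and 26.2% (distance 8.25) and LCN12 on chromosome 9 with 40.2, 54.8 and 36.7% (distance 8.63). In each of them replicate 2 was the highest, as in MUC2.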

How the data were processed

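AcNEIL1 ChIP libraries of HCT116 cells were called by the authors with MACS 2.1.1.20160309 per replicate against the input of the same number, per the file headers, with a q-value cutoff of 0.05 and at most 2 tags per position. Trim Galore, FastQC, cutadapt, Bowtie2, SAMtools and bedtools are listed in the submitters' processing notes, with no role or version given in the sources used here. The deposited signal is the pileup at the summit, in tags extended to 268, 294 and 249 bp in replicates 1, 2 and 3. The deposited −log10 values are those of p and q, and the deposited fold is the ratio of pileup to local background with 1 added to each, the authors' own value per peak. Local background was recovered from these as (pileup + 1)/fold − 1.

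Peaks were joined to RefSeq GRCh38.p14 genes, in 1-based hg38 coordinates, by an overlap of at least 1 bp, with Python 3.11.15, pandas 2.3.3 and numpy 2.4.6; code was tested on simulated data. Genes on scaffolds (679) were dropped. The table gives no strand or exons, so offsets run from the low-coordinate end, and strand came from the promoter table for 7 members. The members and lists were chosen with earlier results of these data known. All 10 members are described, with up to 4 genes of each further list, picked by the highest mean covered share among genes with a peak in every replicate, plus the mucins beside a member and the 3 genes most like MUC2. Stretches within genes were chosen after their peaks were seen. The tag totals limit which peaks pass. Alternatives were a stricter q, equal list lengths, other windows, other overlaps and leaving out each replicate.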

Additional observations from a re-analysis of the deposited data

How the results depend on the processing

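No paired analysis was possible because the series has 1 condition and no test between groups. Peaks in all 3 replicates were found in 9 members with the gene body alone, with 50 kb on each side and with equal list lengths, in 7 at −log10 q of 5 or more, where MUC16 and MUC17 dropped out, and in 3 when peaks had to overlap reciprocally by 50%, which were MUC1, MUC4 and MUC12. Of these settings only the gene body alone has a share over all genes, 20.7%. The others were counted for members only, so whether their counts are high cannot be told. The median of 2.47 peaks per 10 kb became 1.25 at −log10 q of 5 or more, 3.07 in gene bodies alone and 1.77 with 50 kb on each side. The median covered share of 28.0% became 19.9% at −log10 q of 5 or more and 17.8% with 50 kb on each side. The median strongest pileup of 44.1 tags is 14.3 when scaled to libraries of 10000000 ChIP tags, a change of unit. Leaving out 1 replicate at a time could only give 9 members, since these had peaks in every replicate and MUC13 in none. It gave 2.30 to 2.70 peaks per 10 kb, 22.5 to 31.7% covered and a strongest pileup of 37.5 to 48.1 tags. The strongest fold was then 4.63 to 5.46 around 5.12, and the central share 27.9 to 35.3%. With gene bodies alone, 16 of 18 strongest pileups and folds of single genes moved by less than 1 SD, and those of MUC17 became 22.7 tags and 3.26. Wide regions appear as 1 peak or several according to the library, so peak counts are less comparable between replicates than covered length.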
